A study of Mus musculus with 10 samples.

Results

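The MHC class II presentation genes are the 10 genes H2-Aa, H2-Ab1, H2-Eb1, Cd74, Ciita, H2-DMa, H2-DMb1, H2-DMb2, H2-Oa and H2-Ob, taken by gene name from a table of RNA-seq counts. They are 10 of 55487 genes in the table, and all 10 were among the 13740 genes with enough reads to be tested. The libraries came from spinal cord cells of male C57BL/6 mice, 8 to 12 weeks old, that carried an eYFP reporter allele. The mice had experimental autoimmune encephalomyelitis (EAE), a model of multiple sclerosis, and were taken at peak disease. EAE was induced with a myelin oligodendrocyte glycoprotein peptide in complete Freund's adjuvant and with injections of pertussis toxin. From each of 5 animals (m2, m6, m234, m235 and m236), 200000 YFP+ cells and 100000 YFP- cells were sorted from the viable CD3-Ly6G-CD45+CX3CR1+ gate. Every library came from a mouse with the allele and with EAE, so the comparison asks how cells with and without reporter signal differ in the same inflamed tissue. Both macrophages resident in the central nervous system and cells derived from blood monocytes can pass this gate.

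MHC class II molecules are pairs of an alpha and a beta chain that carry peptides from endosomes to the cell surface, where CD4+ T cells read them. The invariant chain encoded by Cd74 fills the groove of new pairs and steers them to endosomes, H2-DM then exchanges its remnant for other peptides, and H2-O holds H2-DM back. Transcription of these genes depends on Ciita, the class II transactivator, which has no DNA-binding domain of its own and acts through factors bound to conserved promoter boxes. In EAE, myelin-specific CD4+ T cells are restimulated in the central nervous system by myeloid cells that bear class II.

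Total counts ranged from 28870482 to 33826355 in the YFP+ libraries (median 31235168) and from 8396863 to 35455643 in the YFP- libraries (median 29727408). The YFP- library of m234 was the shallowest, most class II genes were highest in the libraries of this animal, and tested genes held 99.8% of all counts. Of the genes behind the gate, Ptprc, which encodes CD45, averaged 623 ± 37.5 CPM (read counts scaled to library size) in YFP+ and 728 ± 70.3 CPM in YFP- libraries (SD, n = 5). Cx3cr1, the fractalkine receptor gene, averaged 139.6 ± 67.0 and 282 ± 176 CPM. Neither passed (adjusted p = 0.0690 for Ptprc and 0.153 for Cx3cr1), and both passed as lower with the animal as a block in the fit (0.00192 and 9.24e-05). Counts of Cd3e (0 to 7 per library) and Ly6g (0 to 4) were too low to be tested.

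In YFP+ cells 5 of the 10 class II genes fell, namely the genes of the peptide editor H2-DM (H2-DMa, H2-DMb1 and H2-DMb2) and of its inhibitor H2-O (H2-Oa and H2-Ob). Across all tested genes the same test, edgeR's quasi-likelihood test at a Benjamini-Hochberg adjusted p below 0.05, called 6.15% lower and 6.82% higher. No class II gene was called higher: the edgeR count was 0, as were the count at an unadjusted p under 0.05 and the counts by DESeq2 and limma-trend. The median log2 fold change of the 10 genes was −0.56, beside −0.0022 for all tested genes. H2-Aa, H2-Ab1, H2-Eb1, Cd74 and Ciita had log2 fold changes between −0.60 and −0.29 that did not pass, although 9 of the 10 genes were lower at an unadjusted p under 0.05, as were 2055 of all 13740 genes. When the animal entered the fit as a block, 10 of 10 passed as lower (median −0.60), where 18.3% of all genes did. DESeq2 called 7 lower, with 9.51% of all genes, and limma-trend called 5, with 6.12%. H2-Oa and H2-Ob also fell by more than 1 on the log2 scale, as did 0.888% of all genes. The log2 fold change of H2-Oa was −0.90 (adjusted p = 0.0448) without the YFP- library of m234, −0.96 (0.0615) without the YFP+ library of m2, and −0.99 (0.00121) with the block and without m2. For 3 members (H2-DMa, H2-DMb2 and H2-Ob) every YFP+ library lay below every YFP- library, which held for 5.2% of all genes. In these bulk samples, fewer cells of a type and less RNA per cell cannot be told apart.

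**Figure D1:**
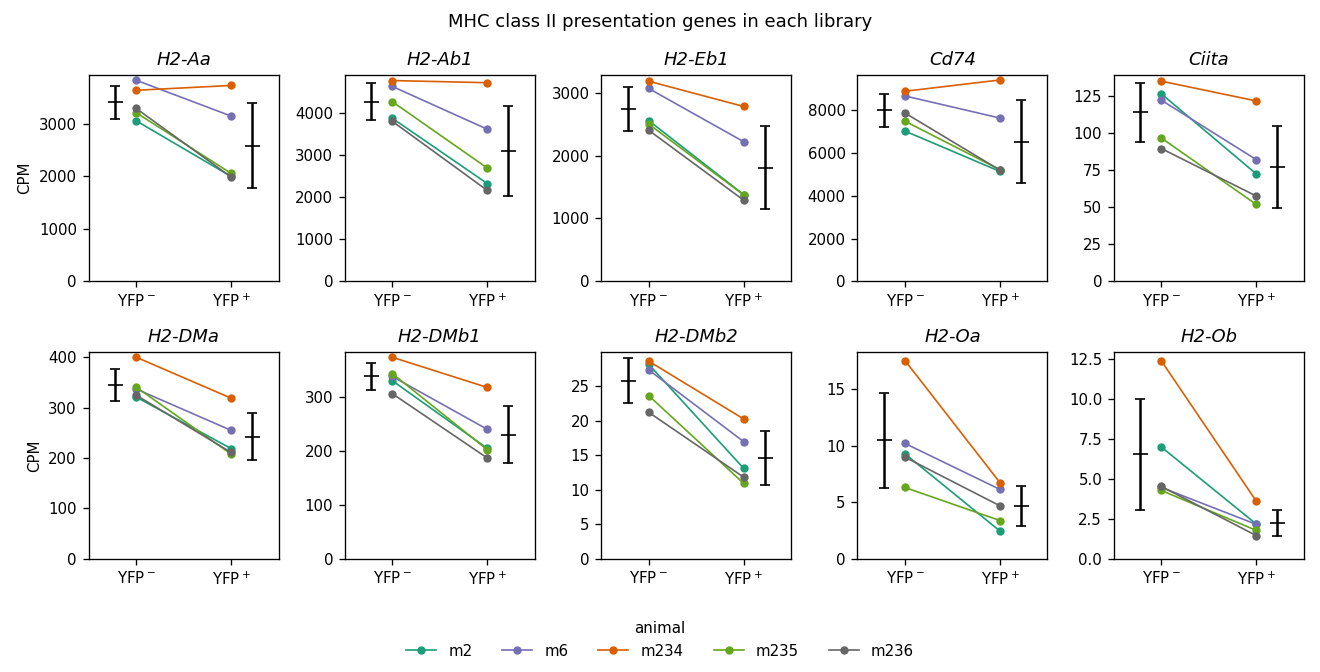
Level of each class II presentation gene in CPM (y axis, from 0) in the YFP- and YFP+ library of each of 5 animals, with a line joining the libraries of an animal and bars for mean ± SD (n = 5). In m234 H2-Aa and Cd74 are not lower in YFP+, while 10 of 10 genes are lower in YFP+ in each of the other animals.

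The count of members that passed as lower varied with the libraries in the fit, as did that of all genes, which was 845 of 13740 with all libraries. Without the YFP+ library of m234, 10 members and 873 of 13688 genes passed. Without both libraries of m234, 9 members and 911 of 13589 genes passed. The count was 0 without m2 (6 at an unadjusted p under 0.05, as were 1503 of 13607 genes), 2 without m6, 3 without m235 and 3 without m236. Calls over all genes were also fewer then, at 316 of 13607, 284 of 13626, 649 of 13646 and 412 of 13633. With the block, the count was 9, 10, 10, 9 and 9 when m2, m6, m234, m235 and m236 were left out, and Cd74 was the member lost. Over all genes, 1612, 1845, 2823, 1816 and 2119 passed as lower in these fits, against 2519 with all animals. The YFP+ library of m234 was the highest of its group for 10 of 10 members, and the YFP- library of m234 was the highest for 9 of 10, with H2-Aa highest in m6. In m234, 8 of 10 members were lower in YFP+ than in YFP- cells, and in each of the other animals 10 of 10 were.

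**Figure D2:**
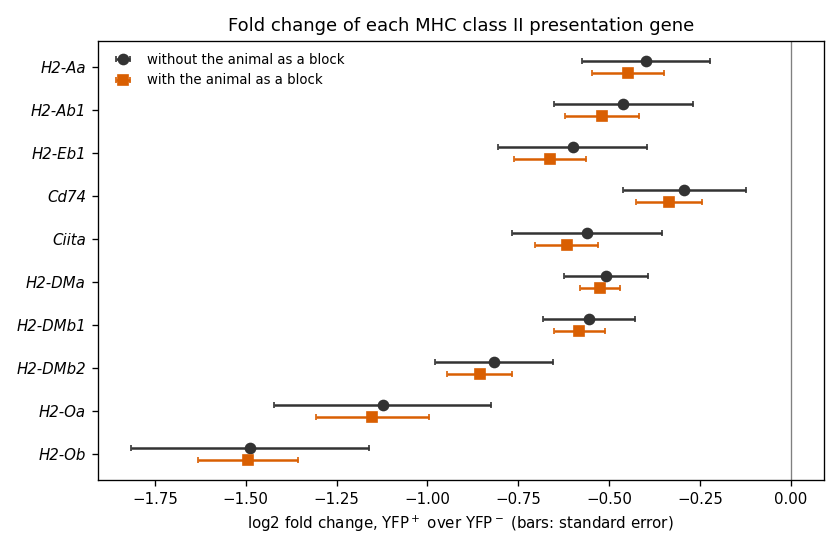
Log2 fold change of each class II presentation gene, YFP+ over YFP- (x axis), from edgeR without the animal (circles) and with the animal as a block (squares), with bars for the standard error. Every value lies below 0, from −0.29 for Cd74 to −1.49 for H2-Ob without the block, and the bars are shorter with the block.

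The classical chains form the molecules that T cells see. H2-Aa (ENSMUSG00000036594, chr17:34282744-34287823 on GRCm38, reverse strand) encodes the alpha chain of I-A, the class II isotype shown by C57BL/6 mice. It was at 1996, 3144, 3726, 2054 and 1984 CPM in the YFP+ libraries of m2, m6, m234, m235 and m236, and at 3055, 3826, 3634, 3209.6 and 3290.0 CPM in the YFP- libraries. The YFP+ libraries of m6 and m234 lay within the YFP- range and the other 3 lay below it. The log2 fold change was −0.40 (SE 0.175, adjusted p = 0.149), and the exact two-sided permutation test on log2(CPM + 1) gave p = 0.0952, where the smallest p that 5 against 5 libraries allow is 0.00794. This test takes the 10 libraries as independent and leaves out their pairing by animal. H2-Ab1 (ENSMUSG00000073421, chr17:34257689-34269419, forward strand), the beta chain of I-A, was at 2329, 3625, 4734, 2699 and 2166 CPM in YFP+ and 3886, 4645, 4785, 4281 and 3813 CPM in YFP- libraries. Here only m234 reached the YFP- range, and all 5 animals were lower in YFP+, with a log2 fold change of −0.46 (SE 0.191, adjusted p = 0.128; exact permutation p = 0.0635). H2-Eb1 (ENSMUSG00000060586, chr17:34305867-34316674, forward strand) encodes the beta chain of I-E, which C57BL/6 mice do not assemble because its alpha chain gene is silent in their haplotype. It was at 1379, 2220.4, 2780.5, 1374 and 1291 CPM in YFP+ and 2556, 3067, 3182, 2501 and 2404 CPM in YFP- libraries. Again only m234 overlapped, and the log2 fold change of −0.60 (SE 0.205) had an adjusted p of 0.0745 by edgeR and 0.0195 by DESeq2 (exact permutation p = 0.0476).

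Cd74 (ENSMUSG00000024610, chr18:60803848-60812652, forward strand), the invariant chain, was at 5128, 7618, 9396, 5208 and 5186 CPM in the YFP+ libraries of m2, m6, m234, m235 and m236, and at 7012, 8651, 8868, 7472 and 7855 CPM in the YFP- libraries. The highest of all 10 libraries was YFP+ m234, and m2, m235 and m236 lay below every YFP- library. Its log2 fold change of −0.29 (SE 0.169, adjusted p = 0.268; exact permutation p = 0.135) was the smallest of the 10 genes, with 4 of 5 animals lower in YFP+. With the block, the adjusted p was 0.00633 for H2-Aa, 0.00345 for H2-Ab1, 6.89e-04 for H2-Eb1 and 0.0167 for Cd74. Without the YFP+ library of m234 these genes passed without a block as well, at 0.0278, 0.0163, 0.0120 and 0.0459. Without both libraries of m234, H2-Aa (0.0433), H2-Ab1 (0.0272) and H2-Eb1 (0.0195) passed and Cd74 did not. With the block, Cd74 did not pass without m2, m235 or m236.

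Ciita (ENSMUSG00000022504, chr16:10480059-10528418, forward strand), the transactivator on which expression of the chains depends, was at 72.4, 82.1, 122, 51.8 and 57.5 CPM in the YFP+ libraries of m2, m6, m234, m235 and m236. The YFP- libraries were at 126, 122, 135, 96.7 and 89.6 CPM. Only m234 reached the YFP- range, yet all 5 animals were lower in YFP+. The log2 fold change was −0.56 (SE 0.207), with an adjusted p of 0.0932 by edgeR, 0.0371 by DESeq2 and 5.27e-04 with the block (exact permutation p = 0.0397). Without the YFP+ library of m234 the adjusted p was 0.0107, and without both libraries of m234 it was 0.0169. Across the 10 libraries, Ciita had a Pearson r of 0.903 and a Spearman rho of 0.842 with the mean log2(CPM + 1) of H2-Aa, H2-Ab1, H2-Eb1 and Cd74, and r was 0.918 without the 2 libraries farthest from the median. After the group means were removed, r was 0.834 and rho 0.733, with 0.636 without the 2 farthest. These values describe 10 libraries that come from 5 animals and share their gate and preparation.

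H2-DM takes the invariant chain remnant out of the groove and edits the peptides that replace it. H2-DMa (ENSMUSG00000037649, chr17:34119541-34139101, forward strand), its alpha chain, was at 219, 255, 319, 208 and 211 CPM in the YFP+ libraries of m2, m6, m234, m235 and m236, and at 321, 337, 401, 341 and 325 CPM in the YFP- libraries. The groups did not overlap, though YFP+ m234 came close to YFP- m2. H2-DMa fell by 0.51 on the log2 scale (SE 0.116, adjusted p = 0.0154; exact permutation p = 0.00794). The beta chain has a pair of neighbouring genes. H2-DMb1 (ENSMUSG00000079547, chr17:34153072-34160230, forward strand) was at 204, 239.8, 318, 202 and 186 CPM in YFP+ and 330.0, 338, 374, 343 and 306 CPM in YFP- libraries. YFP+ m234 lay above YFP- m236, and the other YFP+ libraries lay below all YFP- libraries. H2-DMb1 fell by 0.56 (SE 0.128, adjusted p = 0.0160; exact permutation p = 0.0159). H2-DMb2 (ENSMUSG00000037548, chr17:34143307-34151555, forward strand), at 13.1, 16.9, 20.2, 10.9 and 11.8 CPM in YFP+ and 28.1, 27.3, 28.6, 23.6 and 21.2 CPM in YFP- libraries, did not overlap between groups. It fell by 0.82 (SE 0.162, adjusted p = 0.00778; exact permutation p = 0.00794).

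All 3 H2-DM genes were lower in YFP+ in 5 of 5 animals. No single library ended their calls, but animals did: H2-DMa did not pass without m2 (adjusted p = 0.0678), m6 (0.0654), m235 (0.0511) or m236 (0.0585). H2-DMb1 did not pass without m2 (0.0813), m6 (0.0730) or m235 (0.0577), and H2-DMb2 did not pass without m2 (0.0572). These fits had no block. With the animal as a block, all 3 passed whichever animal was left out. Without m2 these values were 0.00133 for H2-DMa, 0.00257 for H2-DMb1 and 0.00106 for H2-DMb2. H2-DMb1 and H2-DMb2 are near copies: 22.7% of the 50-base stretches of H2-DMb1 also occur in H2-DMb2, and 21.2% of those of H2-DMb2 occur in H2-DMb1. Reads from these stretches could be counted for either gene, so the value of the weaker H2-DMb2 is uncertain. H2-DMa shares 8.43% of its stretches with Brd2, its neighbour on the opposite strand.

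H2-O binds H2-DM and restrains it, and is best known from B cells and some dendritic cells. H2-Oa (ENSMUSG00000024334, chr17:34092340-34095234, forward strand), its alpha chain, was at 2.43, 6.12, 6.72, 3.37 and 4.67 CPM in the YFP+ libraries of m2, m6, m234, m235 and m236, and at 9.28, 10.2, 17.5, 6.30 and 8.98 CPM in the YFP- libraries. The lowest YFP- library, m235, lay just under YFP+ m234, and YFP- m234 stood highest. H2-Oa fell by 1.12 on the log2 scale (SE 0.299, adjusted p = 0.0299; exact permutation p = 0.0159). H2-Ob (ENSMUSG00000041538, chr17:34238903-34254414, forward strand), its beta chain, was at 2.15, 2.14, 3.59, 1.76 and 1.44 CPM in YFP+ and 6.97, 4.45, 12.4, 4.26 and 4.51 CPM in YFP- libraries. The groups did not overlap, and m234 was again highest in both. H2-Ob fell by 1.49 (SE 0.328, adjusted p = 0.0130; exact permutation p = 0.00794), the largest change of the 10 genes. Both were lower in YFP+ in 5 of 5 animals, but the counts were small, from 70 to 367 reads for H2-Oa and from 44 to 221 for H2-Ob. Whether H2-O fell by more than H2-DM or the classical chains was not tested.

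Without the block, the call of H2-Oa depended on several libraries. It did not pass without YFP+ m2 (adjusted p = 0.0615), m235 (0.0601) or m236 (0.0597), without YFP- m2 (0.0516) or m6 (0.0590), or without both libraries of m2 (0.0975), m6 (0.0812) or m236 (0.0864). H2-Ob did not pass without both libraries of m2 (0.0747). With the animal as a block, both genes passed whichever animal was left out. H2-Oa was then at 0.00121 without m2, 0.00109 without m6 and 0.00184 without m236, and H2-Ob at 7.50e-04 without m2. H2-Oa overlaps BC051537, a gene on the opposite strand, over 29.5% of its exon bases, and 15.5% of its 50-base stretches also occur in that gene. Without knowledge of whether counting used the strand, reads of H2-Oa and BC051537 there cannot be told apart. H2-Ob shares no stretch with another gene.

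Differences within animals varied. The log2 difference of H2-Oa in m2, m6, m234, m235 and m236 was −1.93, −0.74, −1.38, −0.90 and −0.94. That of H2-Ob was −1.69, −1.06, −1.79, −1.28 and −1.65, with m234 the largest for H2-Ob and second to m2 for H2-Oa. For H2-Aa the differences were −0.61, −0.28, 0.04, −0.64 and −0.73, with m234 near 0 and m6 next. For Ciita they were −0.80, −0.57, −0.15, −0.90 and −0.64, and for H2-DMa −0.55, −0.40, −0.33, −0.71 and −0.62. In H2-Aa, Ciita and H2-DMa, m234 had the smallest difference of the 5 animals, followed by m6.

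Divided by exon length, the levels fell into 3 tiers. Counting was on transcripts summed to genes, so levels compared between genes may depend on how many transcripts share an exon. The share of exon bases in only 1 transcript was 0.424% for Cd74 and 100% for H2-Eb1, H2-DMb1 and H2-Oa. Cd74 averaged 4596 CPM per kb in YFP+ and 5630 CPM per kb in YFP- libraries. H2-Ab1 (2566 and 3533), H2-Aa (2288 and 3017) and H2-Eb1 (1084 and 1643) followed, and the library ranges of H2-Ab1 and H2-Aa overlapped in both groups. H2-DMb1 (164 and 241) and H2-DMa (90.9 and 129) came next, without overlap between their ranges. Ciita (9.37 and 13.9), H2-DMb2 (8.35 and 14.8), H2-Oa (4.28 and 9.61) and H2-Ob (0.631 and 1.85) were the lowest. The ranges of Ciita and H2-DMb2 overlapped in both groups, H2-Oa reached theirs in YFP- but not in YFP+ libraries, and H2-Ob lay below H2-Oa in both. Summed CPM of the 10 genes was 11344, 17209.5, 21424, 11812 and 11099.9 in the YFP+ libraries of m2, m6, m234, m235 and m236 and 17331, 21029, 21437, 18279 and 18117 in the YFP- libraries.

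Ratios within a library do not depend on its depth and are given as description. Being ratios between genes, they carry the same limit as the levels per length. H2-Oa per H2-DMa, on levels per length, averaged 4.63% ± 1.28 in YFP+ and 7.30% ± 2.23 in YFP- libraries (SD, n = 5). It was lower in YFP+ in 5 of 5 animals, with overlapping groups. H2-Ob per sum of H2-DMb1 and H2-DMb2 averaged 0.359% ± 0.0551 and 0.711% ± 0.325, without overlap. H2-Aa per Cd74 averaged 49.6% ± 1.41 and 53.6% ± 1.63 and was lower in 5 of 5 animals, with 1 YFP+ library inside the YFP- range. H2-DMa per H2-Aa (4.09% ± 0.538 and 4.30% ± 0.364) was lower in 3 of 5 animals, and Ciita per H2-Aa (0.409% ± 0.0633 and 0.460% ± 0.0779) in 4 of 5, both with overlapping groups.

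Among the other members, r with the mean of the classical chains and Cd74 across the 10 libraries ran from 0.752 for H2-Ob to 0.936 for H2-DMb1. After group means were removed, H2-DMb1 stayed at 0.937 and H2-Ob was at 0.524 (rho 0.382, and 0.397 without the 2 farthest libraries). Of 13730 other tested genes, the 5 with the highest r over the libraries were Trmt112-ps2 (0.947), Gm8225 (0.946), Adam19 (0.943), Kif5c (0.942) and 2310010J17Rik (0.937). After group means were removed, the 5 highest were 1110038B12Rik (0.952), Map4k3 (0.942), Phlpp1 (0.935), Zbtb12 (0.928) and Gm15779 (0.928). The lists have no gene in common, and of these genes only Gm15779 was called (log2 fold change −0.43, adjusted p = 0.0130). The correlations are descriptions of 10 libraries from 5 animals, chosen as the highest of many.

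On chromosome 17, 8 members lie between 34092340 and 34316674, from H2-Oa to H2-Eb1, in the class II region. The table holds 12 other genes in this interval, of which 5 were tested and 1 was called lower. Brd2, a bromodomain gene between H2-Oa and H2-DMa, had a log2 fold change of 0.04 (adjusted p = 0.789). Psmb8 and Psmb9 encode immunoproteasome subunits of the class I pathway, and their values were −0.29 (0.0529) and −0.22 (0.102). Tap1 and Tap2 form the transporter that feeds peptides to class I. Tap1 was at −0.29 (0.109), and Tap2 fell by 0.43 (0.0198), though it did not pass without YFP+ m2 (0.0507) or without m2 (0.0504), m6 (0.0899) or m236 (0.0602). With the block, Psmb8 (0.00124), Psmb9 (0.00108), Tap1 (3.58e-04) and Tap2 (1.51e-05) passed as lower and Brd2 (0.413) did not. Only these 5 genes of the interval besides the members had enough reads to be tested.

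**Figure D3:**
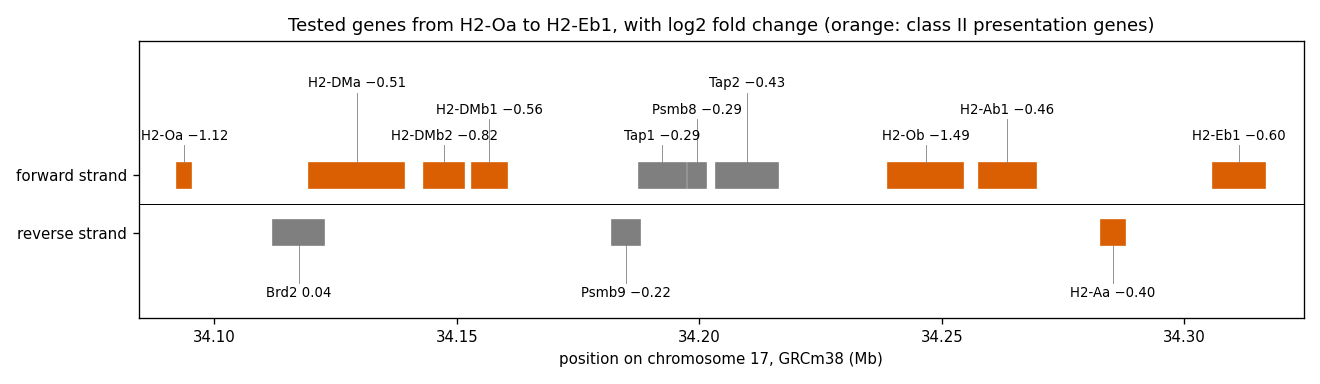
Tested genes of the interval from H2-Oa to H2-Eb1 on chromosome 17 (GRCm38, x axis in Mb), drawn to scale by strand and labelled with the log2 fold change, with class II members in orange. Fold changes of the members run from −1.49 for H2-Ob to −0.40 for H2-Aa, and Brd2 between them is at 0.04.

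Promoters of class II genes share an X box core, an X2 box and a Y box, bound by RFX, CREB and NF-Y factors. RefSeq promoters were at hand for 7 of the 10 members, with 8 starts, and not for H2-Ab1, Cd74 and Ciita. The 250 bases before each start were searched on both strands for AACNGATG (X core), TGNGTCA (X2) and ATTGG (Y), and no matches overlapped in the stretches shown. Of 32851 mouse promoters, 1.985% held the X core, 12.962% the X2 letters, 33.85% the Y letters and 0.688% both X core and Y. X core and Y both occurred before H2-Eb1 (89 and 59 bases before the start, with another Y on the reverse strand at 35), H2-DMb1 (92 and 61) and H2-DMb2 (121 and 90). Those of H2-DMb1 lie wholly in an annotated exon of that gene, downstream of its annotated start. H2-Oa held X2 on the reverse strand (132) and Y (43), and H2-DMa held X2 (86) and Y (198) at 1 of its starts and none of the letters at the other. As exact matches, H2-Ob (57) and H2-Aa (48) held Y alone. The stretches below are from H2-Eb1, a classical chain with both motifs, H2-DMb2, a gene that fell and has both, and H2-Ob, the gene with the largest change. H2-Ob has Y alone as an exact match. Before its Y it also holds aacaaatg, which differs from the X core letters by 1 base. The exact search therefore does not show that H2-Ob lacks an X box. They are printed 5′ to 3′ on the forward strand of GRCm38.p6, with matches in capitals, and hold no exon base of their own gene. The stretch of H2-Eb1 is chr17:34305717-34305866 and that of H2-Ob chr17:34238755-34238902, both directly upstream of the gene, while that of H2-DMb2, chr17:34145099-34145235, lies between exons of the annotated gene, before the RefSeq start. A match is a description of the letters, not a site in use.
H2-Eb1: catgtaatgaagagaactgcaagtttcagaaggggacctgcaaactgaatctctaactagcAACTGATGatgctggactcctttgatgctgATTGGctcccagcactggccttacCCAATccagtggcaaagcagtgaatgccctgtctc
H2-DMb2: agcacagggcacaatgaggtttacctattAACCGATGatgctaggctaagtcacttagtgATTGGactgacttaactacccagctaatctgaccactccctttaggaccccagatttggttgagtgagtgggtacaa
H2-Ob: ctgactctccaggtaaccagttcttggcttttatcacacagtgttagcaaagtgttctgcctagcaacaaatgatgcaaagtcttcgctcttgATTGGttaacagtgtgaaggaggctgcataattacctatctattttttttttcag

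Of the 7 factors that bind these boxes, 3 fell in YFP+ cells (median log2 fold change of the list −0.21), and 5 with the block. Creb1, which encodes a factor of the X2 box, fell by 0.35 (SE 0.0795, adjusted p = 0.0152). Rfx5, the DNA-binding subunit of the X box complex, fell by 0.45 (SE 0.133, adjusted p = 0.0427). Nfya, a subunit of the Y box factor and the most abundant gene of the list, fell by 0.22 (SE 0.0625, adjusted p = 0.0415). All 3 were lower in 5 of 5 animals. In 15 fits without the block, each leaving out 1 library or 1 animal, Creb1 did not pass in 2 (without m2, 0.0580, and m6, 0.0754). Rfx5 did not pass in 12 (highest 0.142, without m2) and Nfya in 13 (highest 0.120, without m236).

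Interferon gamma is the main inducer of Ciita in macrophages, and of the 6 genes on its route to Ciita 1 fell, and 4 with the block (median −0.17). Jak2, a kinase of the interferon gamma receptor, averaged 164 ± 13.1 CPM in YFP+ and 256 ± 25.1 CPM in YFP- libraries and fell by 0.64 (SE 0.0771, adjusted p = 4.88e-04), without overlap and in each of the 15 fits. Jak1, the most abundant gene of the list, had a log2 fold change of −0.01 (adjusted p = 0.880). Of 7 other regulators of Ciita, 3 fell, and 5 with the block (median −0.26). Spi1, which encodes the myeloid factor PU.1, fell by 0.21 (SE 0.0532, adjusted p = 0.0226) and did not pass in 6 of the 15 fits (highest 0.0889, without m2). Irf4 fell by 0.98 (SE 0.243, 0.0227) and did not pass in 5 (highest 0.0845, without m6). Il10ra, a receptor chain for the inhibitory cytokine interleukin 10, fell by 0.68 (SE 0.178, 0.0282) and did not pass in 9 (highest 0.121, without m2). Irf8, the most abundant gene of the list, was at −0.28 (adjusted p = 0.0905; 3.03e-04 with the block).

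Of 9 genes of endosomal processing, 5 rose (median 0.18). Ctss, the main protease of invariant chain removal in macrophages and dendritic cells, averaged 9161 ± 564 CPM in YFP+ and 7069 ± 543 CPM in YFP- libraries. It was the most abundant of the list and rose by 0.37 on the log2 scale (SE 0.0785, adjusted p = 0.0103). Ctsl, Ctsb and Ctsd, which encode further endosomal and lysosomal proteases, rose by 0.54 (0.00121), 0.58 (0.00184) and 0.81 (8.60e-04), in each of the 15 fits. Ctsh rose by 0.18 (0.0458). All 5 were higher in 5 of 5 animals without overlap. Ctss did not pass without m2 (0.0657) or m6 (0.0701), and Ctsh in 14 of the 15 fits (highest 0.167, without m2). With the block the same count rose and 1 gene, Cst3, passed as lower (0.0233). Summed CPM of the list was 27442, 26213, 24461, 28283 and 29673.5 in the YFP+ libraries of m2, m6, m234, m235 and m236, and 19389.9, 18675, 21969, 20808 and 21695 in the YFP- libraries.

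Of 12 genes of class II traffic and turnover, 10 were in the table and tested, and 2 rose and 1 fell (5 and 3 with the block; median 0.16). Cd83, which protects surface class II from the ligase MARCH1, fell by 1.16 (SE 0.311, adjusted p = 0.0307) and did not pass in 8 of the 15 fits (highest 0.123, without m2). Marchf8, a related ligase that ubiquitinates membrane proteins, rose by 0.20 (0.0220), and Lyst, a regulator of lysosome size, by 0.30 (0.0465). Marchf8 did not pass in 7 of the fits (highest 0.107, without m236) and Lyst in 12 (highest 0.165, without m2). Cd53, a tetraspanin and the most abundant of the list, was at 0.15 (0.286; 0.0147 with the block). Costimulation is the second signal that T cells need beside class II, and 4 of 7 tested genes (of 9 in the list) fell, with 5 under the block (median −0.49). Cd86 fell by 0.43 (SE 0.0732, 0.00353) and Cd40 by 0.84 (SE 0.163, 0.00690), in each of the 15 fits. Cd80 fell by 0.49 (0.0425) and Icosl by 0.84 (0.0321), but they did not pass in 11 (highest 0.148, without m236) and 9 (highest 0.125, without m2) of the fits. Cd274, the gene of the checkpoint ligand PD-L1 and the most abundant of the list, was at −0.07 (0.775), and Cd70 had no reads. Of 17 class I genes, 3 fell (4 rose and 9 fell with the block; median −0.18). H2-D1, a class I heavy chain and the most abundant, was at 0.13 (0.393; 0.0338 with the block). Besides Tap2, these were Psme1, a proteasome activator gene, which fell by 0.36 (0.00579), and Nlrc5, the class I transactivator, which fell by 0.33 (0.00343).

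The gate could hold other cells that bear class II, so marker lists were read beside the result. Of 11 conventional dendritic cell markers 8 were tested, 6 fell and 1 rose (median −1.31). Of those that fell, Flt3, Zbtb46 and Dpp4 were below 1 CPM in every YFP+ library. They passed the filter through YFP- libraries alone, and the count and median rest in part on them. Flt3, the growth factor receptor of the lineage, averaged 0.289 ± 0.141 CPM in YFP+ and 3.63 ± 1.47 CPM in YFP- libraries and fell by 3.59 (SE 0.375, adjusted p = 2.40e-04), with 2 to 13 reads in each YFP+ library. Cd24a, the most abundant marker and one that other leukocytes also express, rose by 0.75 (0.00914), and did not pass without m2 (0.0579). The summed list was therefore higher in YFP+ libraries, at 247, 244, 211, 272 and 223 CPM in m2, m6, m234, m235 and m236 against 177, 181, 148, 200.4 and 167 CPM. Of 8 mature dendritic cell markers 5 fell (6, and 1 rose, with the block; median −1.94). Ccl22, a chemokine, fell by 3.12 (0.00143). The log2 fold change was −3.01 for Ccl17 (0.00681), −2.76 for Ccr7 (2.03e-04) and −2.33 for Il4i1 (0.0138). Il4i1 was below 1 CPM in every YFP+ library, so it passed the filter through YFP- libraries alone, and the count and median rest in part on it. Il4i1 was below the filter, and not tested, in 6 of the 15 fits that left out a library or an animal. These were the fits without the YFP- library, or both libraries, of m2, m234 or m236. Relb, the most abundant, fell by 0.28 (0.0392) and did not pass in 11 of the 15 fits (highest 0.124, without m2). The list summed to 121, 114, 121, 103 and 109 CPM in YFP+ and 179.5, 135, 175, 141 and 142 CPM in YFP- libraries. Xcr1, Itgae and Cd209a were below the filter, and no marker of these lists was at 0 throughout. The part of dendritic cells in the class II result was not tested.

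Of 9 microglia markers edgeR called 0, with 6 lower at an unadjusted p under 0.05, 2 lower by DESeq2, 0 by limma-trend and 7 lower with the block (median −1.01). The list summed to 1064, 1108, 1242, 790.1 and 1254 CPM in the YFP+ libraries of m2, m6, m234, m235 and m236, and to 1702, 1237, 3139, 900.3 and 1381 CPM in the YFP- libraries. YFP- m234, highest for most class II genes, also stood far above the others here. Of 8 monocyte markers 4 fell (2 rose and 6 fell with the block; median −0.73). The log2 fold change was −2.19 for Plac8 (7.45e-04) and −1.12 for Ccr2 (0.00339). Vcan also fell (0.0214) but did not pass in 5 of the 15 fits (highest 0.113, without m6). Chil3, the most abundant, was at 0.34 (0.664; 0.00132 with the block). The list summed to 4887, 5092, 2889, 6186 and 9391 CPM in YFP+ and 4251, 4805, 3029, 6496 and 8180.3 CPM in YFP- libraries, lowest in m234 in both groups. Of 8 border-associated macrophage markers 4 were tested and 3 rose (median 0.83). Pf4 rose by 1.88 (0.00324), Mrc1 by 1.16 (0.0320) and Ms4a7, the most abundant, by 0.50 (0.0103). Mrc1 did not pass in 10 of the 15 fits (highest 0.113, without m6) and Ms4a7 without m6 (0.0631). Clec10a, the other tested marker, was at −0.24 (0.473). Cd163, Lyve1, Cbr2 and Folr2 were below the filter. Cbr2, the highest of these, averaged 0.904 CPM in YFP+ and 0.630 CPM in YFP- libraries. The list summed to 240.3, 201, 152, 147 and 198 CPM in YFP+ and 139, 114, 86.6, 95.2 and 118 CPM in YFP- libraries. The part of these cells in the class II result was not tested.

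Of 10 B cell markers, 9 were below the filter, Fcer2a and Cr2 had no reads, and the list summed to at most 6.24 CPM (3.04 ± 0.921 in YFP+ and 3.27 ± 1.74 in YFP- libraries). Cd79b, the marker tested, was at 0.08 (adjusted p = 0.921), so the count was 0 by edgeR, by DESeq2, by limma-trend and at an unadjusted p under 0.05. Of 7 plasmacytoid dendritic cell markers 3 were tested and edgeR called 0 (2 lower at an unadjusted p under 0.05, 1 by DESeq2, 0 by limma-trend, 2 with the block; median −0.25), and Tcf4, the most abundant, was at −0.25 (0.148). The plasmacytoid list summed to 98.6 ± 8.06 CPM in YFP+ and 132 ± 44.2 CPM in YFP- libraries. Of 6 plasma cell markers 3 were tested (median −0.26): Jchain fell by 2.87 (0.0184) from a low level, and Sdc1, the most abundant and also made by macrophages, rose by 0.70 (0.00239). Jchain ran from 0 to 1.47 CPM in YFP+ libraries (mean 0.487) and was at 1.75 CPM or more in every YFP- library. It passed the filter through the YFP- libraries, and the fall called in this list rests on it. The plasma cell list summed to 316, 339, 391, 354 and 329.6 CPM in YFP+ and 276, 282, 254, 314 and 312 CPM in YFP- libraries. Of 8 T cell markers 2 were tested and edgeR called 0 (0 at an unadjusted p under 0.05, 0 by DESeq2, 0 by limma-trend and 1 lower with the block; median −0.59), with Cd5 as the most abundant at −0.71 (0.321; 0.0241 with the block). Of 6 NK cell markers 1 was tested, and Klrk1 fell by 1.86 (3.50e-04), while the list summed to 3.09, 3.01, 5.59, 3.58 and 2.97 CPM in YFP+ and 11.96, 11.6, 14.7, 13.6 and 10.4 CPM in YFP- libraries. Of 8 neutrophil markers 2 were tested (median −1.59; 1 rose and 1 fell with the block): S100a9 fell by 3.40 (0.00977) and S100a8, the most abundant, was at 0.23 (0.560; 0.0154 with the block). S100a9 was below 1 CPM in every YFP+ library, so it passed the filter through YFP- libraries alone. The fall and the median of the 2 tested markers rest on it. S100a9 was below the filter, and not tested, in the 6 fits without the YFP- library, or both libraries, of m2, m6 or m235. The neutrophil list summed to 18.3, 30.3, 16.8, 29.4 and 29.6 CPM in YFP+ and 24.5, 32.5, 12.5, 25.1 and 25.8 CPM in YFP- libraries. Of 6 myelin and oligodendrocyte markers 5 were tested and edgeR called 0 (1 higher and 1 lower at an unadjusted p under 0.05, by DESeq2 and with the block, 0 by limma-trend; median 0.11), and Mbp, the most abundant, was at 0.18 (0.0789; 0.00306 with the block). The part of these cells in the class II result was not tested.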

How the data were processed

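RNA was sequenced from sorted YFP+ and YFP- spinal cord cells of 5 mice, 1 library each (10 libraries). Per the submitters' processing notes, reads were aligned to GRCm38 with STAR 2.7.10b. The authors deposited raw counts: alignments were counted on transcripts of a basic Ensembl annotation with summarizeOverlaps in Union mode, without secondary or vendor-failed alignments, and summed to genes. The processing notes do not say if strand entered the counting. A gene was tested if 3 or more libraries exceeded 1 CPM, with edgeR 4.0.16 in R 4.3.3 (TMM library sizes, quasi-likelihood test, Benjamini-Hochberg adjustment over all tested genes). Every adjusted p without a named tool is from that fit. CPM use the same library sizes, and 1 was added before log2 for permutation tests and correlations. DESeq2 1.42.0, limma 3.58.1, other library sizes and filters, leaving out each library or animal, and a block by animal were alternatives. The fits were tested on simulated data, with libraries drawn independently and changes larger than those of the members in the edgeR fit. Smaller changes and the pairing by animal were not part of that test.

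The libraries of an animal pair by their labels: residuals from the group means correlated at 0.415 to 0.706 for the 5 pairs of the same animal and at −0.412 to 0.0837 for the 20 pairs of different animals. No libraries were duplicates (chi-square per degree of freedom 17.8 to 71.7 over the 20 pairs of libraries within a group). Gene lengths and shared 50-base stretches are from GENCODE exons.

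Members and the 21 lists, the members among them, were chosen with earlier results of these data known. The lists are the members, class II promoter factors, interferon gamma route, other Ciita regulators, endosomal processing, traffic and turnover, class I, costimulation, sort markers, and markers of conventional, mature and plasmacytoid dendritic cells, B cells, plasma cells, microglia, border-associated macrophages, monocytes, T cells, NK cells, neutrophils and myelin. Some genes stand in 2 lists: Irf4 (Ciita regulators and conventional dendritic cells), Prdm1 (Ciita regulators and plasma cells), Siglech (plasmacytoid dendritic cells and microglia), and Cx3cr1, Cd3e and Ly6g (sort markers and microglia, T cells and neutrophils). The rule for named genes took the members, the most abundant and the most changed called gene of each list, every called gene of the promoter factor, interferon gamma, Ciita regulator, endosomal, traffic and costimulation lists, 5 genes by each correlation, and genes between members on chromosome 17. Some genes that the rule names, and the counts of the sort marker list, are not reported here. Cx3cr1, Ptprc, Cd3e, Ly6g, Nlrc5, Psme1, Mrc1, Clec10a, Cd163, Lyve1, Cbr2, Folr2, Cst3, Cd70, Zbtb46, Dpp4, Ccr7, Ccl17, Il4i1, Plac8, Ccr2, Vcan, Xcr1, Itgae, Cd209a, Fcer2a, Cr2, BC051537 and the genes named for standing in 2 lists fell outside it or were singled out, and were chosen after their values were seen.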

Additional observations from a re-analysis of the deposited data

Results flagged for a closer look

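In 7 of 62 groups examined, the highest or lowest library stood far from the other 4 of its group, and chance flags about 1 in 20 groups. All 7 were libraries of m234. The groups were read from the same libraries and are not independent, so this count cannot show an excess over chance. In YFP- libraries these were the highest H2-DMa (401 CPM), the highest sum of the other Ciita regulators (1266 CPM), the highest sum of the traffic and turnover list (2483 CPM), the highest sum of the myelin and oligodendrocyte markers (197 CPM) and the lowest total count (8396863). In YFP+ libraries they were the highest sum of the interferon gamma route (1195 CPM) and the highest sum of the NK cell markers (5.59 CPM).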

How the results depend on the processing

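All 10 members were lower in YFP+ in every setting, with their median log2 fold change from −0.74 to −0.48 when a library or an animal was left out. The animal block called 2307 genes higher and 2519 lower (213 past the fold limit), against 937 and 845 (122) without it, with 10 members lower, and ended no call of a member or listed gene. With m2, m6, m234, m235 and m236 left out under the block, 9, 10, 10, 9 and 9 members passed. With the fold limit 2 members passed. DESeq2 called 1307 genes lower (186 past the limit), total counts only called 1282 lower and 701 higher, and no filter on low counts gave 190 lower past the limit. Leaving out a library or an animal gave 360 to 1037 genes higher, 284 to 911 lower, 68 to 168 lower past the limit, and 0 to 10 members lower. Of 1251 values for 55 single genes under the alternatives, 1059 stayed on their side of the threshold, 176 lost their call, 16 gained one and 0 reversed. Il4i1 and S100a9 have no value in 6 fits each that left out a library or an animal, and with CPM above 1 required in 5 libraries, because they were then below the filter. The causes were not tested. Low counts limit H2-Oa and H2-Ob, shared sequence limits H2-DMb1 and H2-DMb2, and the exact permutation test, which ignores the pairing by animal, allows no p below 0.00794 for 5 against 5 libraries. Cell composition was not measured.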
